A study of Rattus norvegicus with 8 samples.

Results

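The carbonic anhydrase family was followed across 8 litters of fetal rat pancreatic islets. The members are 10 genes (Car2, Car3, Car4, Car5a, Car5b, Car8, Car9, Car12, Car13 and Car14) of 14506 genes tested. They were listed by symbol, and the family was chosen from the measured values because Car12 had the largest rise past the threshold in growth-restricted litters. The comparison of IUGR with sham litters is therefore described for Car12 without a test, and for the other members it rests on the contrast that chose the family.

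Each array carried RNA from the islets of all fetuses of 1 Sprague-Dawley litter, on Affymetrix whole-transcript arrays. IUGR (intrauterine growth restriction) dams were operated on embryonic day 18 to restrict fetal growth, and sham dams had a control operation on the same day. Islets were collected on embryonic day 19, 1 day later, from 4 sham and 4 IUGR litters. The labels name no genetic change, no drug and no cell sorting, and they do not say which vessels or horns the growth-restricting operation touched. In pooled islets, fewer cells of a type and less RNA per cell cannot be told apart.

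Carbonic anhydrases are zinc enzymes that turn carbon dioxide and water into bicarbonate and a proton, and back. The isoforms sit in different places: in the cytosol, in mitochondria, or on the outer face of the cell membrane. In the pancreas the family is best known from duct cells, which use it to make a bicarbonate-rich fluid. Red blood cells use it to carry carbon dioxide, and the membrane isoforms encoded by Car9 and Car12 are known as targets of the hypoxia-inducible factor HIF-1 in many tumour cells.

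The arrays did not share a common floor of signal. The interquartile range of all genes was 3.06 to 3.23 on sham replicates 2, 3 and 4, against 3.53 to 3.63 on sham replicate 1 and the IUGR arrays. As a reference for signal where no transcript is expected, the 95th percentile of 1105 olfactory receptor genes was taken on each array. It was 7.47 to 7.59 (log2) on sham replicates 2 to 4 and 6.45 to 6.57 on the other 5 arrays. Dim genes are therefore lifted on those 3 sham arrays. The median of all genes was lower there, at 8.48 to 8.55, against 8.76 to 8.85 on the other 5 arrays. The scale of those 3 sham arrays thus differed from that of every IUGR array, for brighter genes too. Without the dimmest 30% of genes the median difference IUGR minus sham was 0.14, against 0.04 over all genes. The tissue label was checked against 15 measured endocrine markers, of which 14 lay above that reference on all 8 arrays, with list means of 10.42 to 11.98 in sham and 10.77 to 11.31 in IUGR litters. Liver markers were also bright, at 9.15 to 11.82 in sham and 11.65 to 12.98 in IUGR litters.

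Signal above the olfactory receptor reference on every array was found for 5 members: Car2, Car5b, Car8, Car9 and Car12. The other 5 were above it on only some arrays. Car14 was above it on all 4 IUGR arrays and on sham replicate 1, and so were Car4, Car5a and Car13. Car3 was above it on those 5 arrays and on sham replicate 3. On sham replicates 2 and 4 these 5 genes could not be told from the reference. Each member had 1 probe set, and brightness differs between probe sets, so no isoform is ranked above another here.

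**Figure D1:**
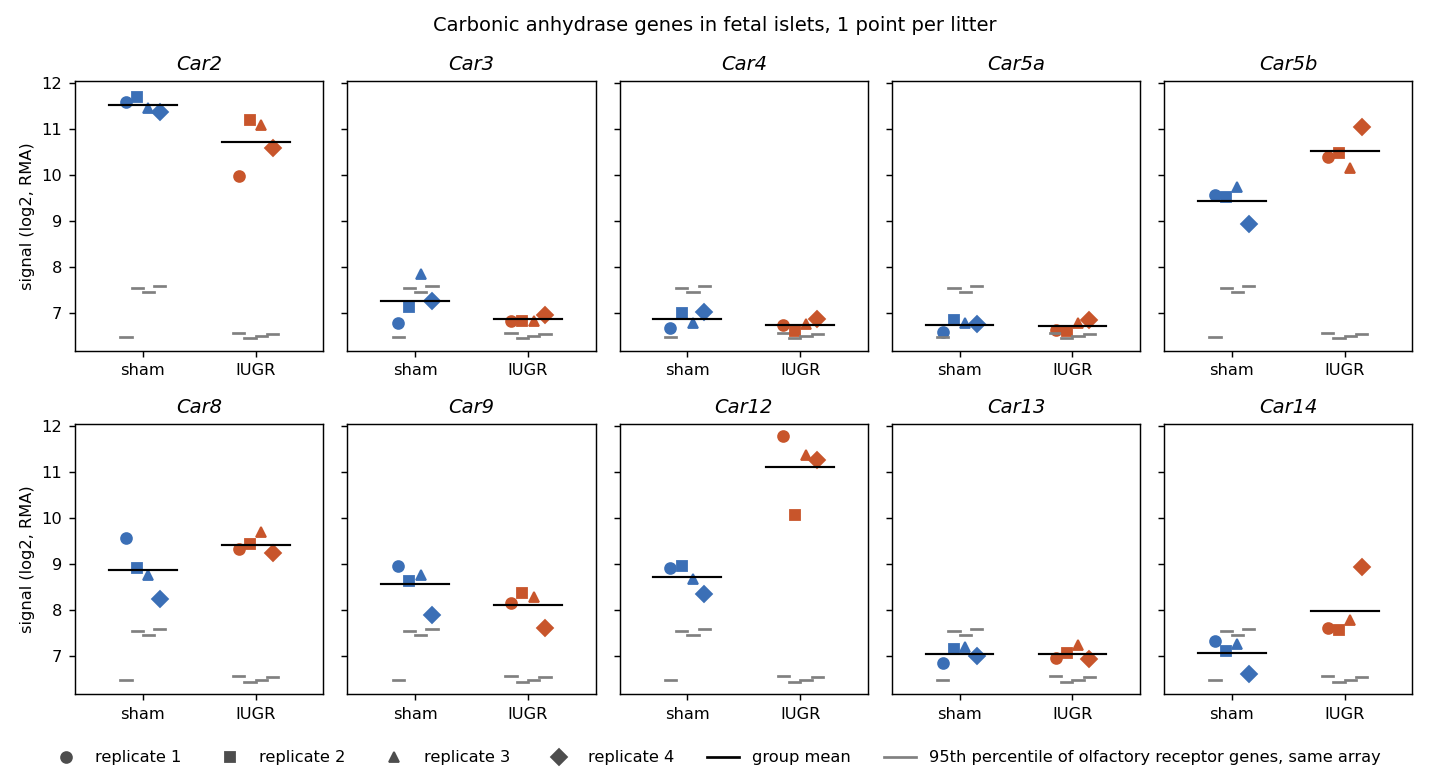
Signal (log2, RMA) of the 10 carbonic anhydrase genes in sham and IUGR litters, 1 marker shape per replicate number, with group means as black lines and the 95th percentile of olfactory receptor genes of each array as grey ticks. Car12, Car5b and Car14 show IUGR litters wholly above sham litters, Car2 wholly below, and the other 6 genes overlap.

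Car12, which encodes a membrane enzyme with its active site outside the cell, showed the widest separation in the family. Its signal was 8.93, 8.95, 8.68 and 8.35 in sham replicates 1 to 4. In IUGR replicates 1 to 4 it was 11.77, 10.07, 11.38 and 11.25. All IUGR litters were above all sham litters, with a gap of 1.11 between the lowest IUGR and the highest sham value, and IUGR replicate 2 stood below its group. The means were 8.73 ± 0.28 and 11.12 ± 0.73 (SD, n = 4 each), a difference of 2.39 ± 0.34 (SE, log2) or 5.25-fold. Among the 36 genes past the threshold this was the highest rise, while 23 genes that did not pass had larger differences. With 1 litter left out at a time the Car12 difference lay between 2.17 and 2.74.

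Markers of other epithelial cells were mostly higher in IUGR litters, as Car12 was. All 10 duct markers were higher, and 1 of them, the keratin gene Krt8, rose past the threshold (1.07 ± 0.14, SE, limma adjusted p = 0.043). At an unadjusted p under 0.05 (limma) 8 of them were higher. Over all genes 55.1% were higher, 0.234% past the threshold and 15.4% at that unadjusted p. The duct list mean was 9.50, 10.01, 9.99 and 10.22 in sham replicates 1 to 4. In IUGR replicates 1 to 4 it was 11.06, 10.75, 10.68 and 10.81. Its groups did not overlap and IUGR replicate 1 was highest, as for Car12. The rest of the order differed. Among IUGR litters the duct list was lowest in replicate 3 and Car12 in replicate 2. Among sham litters the duct list was lowest in replicate 1 and Car12 in replicate 4. All 16 acinar markers were higher, 0 of them past the threshold (limma, 11 at an unadjusted p under 0.05), with list means of 9.24 to 10.81 in sham and 10.96 to 11.93 in IUGR litters. Of 10 stomach and intestine markers, 9 were higher, with list means of 6.64 to 8.16 in sham and 7.16 to 9.61 in IUGR litters. The mean of this list in IUGR replicate 4 (7.16) lay below those of sham replicates 2 (8.16) and 4 (8.02), unlike Car12. Only 2 of the 10 lay above the olfactory receptor reference on all arrays. Liver markers, given beside Car14, were also higher. Their lowest IUGR mean was in replicate 2, as for Car12, but it lay below that of sham replicate 1 (11.65 against 11.82). The part of these cells in the Car12 values was not tested.

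Because hypoxia targets are part of what this family is known for, the RefSeq promoter windows (250 bases before to 50 after the annotated start, GRCr8) were searched for the core letters of the HIF site. The letters ACGTG and GCGTG were counted on both strands. Windows were given for 6 of the 10 members. The 250 bases before the start of Car12 (chr8:76169565-76169814, plus strand) held neither motif and are shown as the gene whose values differed most:

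Car12 upstream: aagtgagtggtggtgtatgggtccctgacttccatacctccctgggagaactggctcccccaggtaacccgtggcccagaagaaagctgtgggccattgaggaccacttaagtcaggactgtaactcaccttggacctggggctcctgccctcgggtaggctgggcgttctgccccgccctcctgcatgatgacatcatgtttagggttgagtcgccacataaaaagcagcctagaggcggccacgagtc

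All matches in the Car12 window lay just after that start. RefSeq's record of the gene begins further upstream, within the stretch above, so transcripts may also start before these matches. The stretches around them are set beside those of the other membrane isoforms with a match, Car9, Car14 and Car4, with the matching letters in capitals and every stretch 5′ to 3′ on the gene's strand. The positions are chr8:76169815-76169844 and chr8:76169835-76169864 (plus) for Car12, chr5:62559012-62559041 (plus) for Car9, chr2:186138202-186138231 (minus) for Car14, and chr10:70325108-70325137 and chr10:70325324-70325353 (plus) for Car4.
Car12 first site: gacacaaccgACGTGCACGCtttggtccca
Car12 second site: tttggtcccaggctACGTGCACGCtgtgct
Car9 site: cttatttccgatgCACGTacagcccgtcca
Car14 site: ccacccccctcctCACGTacaccggttccg
Car4 first site: ctgtgggtcaggtACGTGaggatagctcat
Car4 second site: aggagccgcctccCACGTcctgccgtccgg

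In Car12, ACGTG and, read on the other strand, GCGTG stood side by side without overlap as the 10 letters ACGTGCACGC, and this unit occurred 2 times, at bases 11 to 20 and 35 to 44 after the start. Of 27457 promoter windows of the same length, 42.9% held ACGTG or GCGTG on either strand, 19 held the 10-letter unit and 2 held it at least 2 times. The unit was looked for after it had been seen in Car12. Car9 held 1 ACGTG (bases 2 to 6, antisense), Car14 held 1 (bases -54 to -50 before the start, antisense) and Car4 held 2, and the windows of Car5a and Car5b held neither motif. A single match is thus common, and the letters do not show that a factor binds.

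Car9, the other membrane isoform known as a hypoxia target, did not share the Car12 pattern. It read 8.96, 8.63, 8.75 and 7.90 in sham replicates 1 to 4. It read 8.15, 8.38, 8.28 and 7.61 in IUGR replicates 1 to 4. The groups overlapped through sham replicate 4, and the lowest value of all was in IUGR replicate 4. The difference was -0.46 ± 0.25 (SE), with a 95% interval of -1.04 to 0.13 (limma adjusted p = 0.277). Leaving out sham replicate 4 gave -0.68 and leaving out IUGR replicate 4 gave -0.29. With sham replicate 1 as the only sham litter it was -0.85, in a fit where 0 of all genes passed (limma, 1370 at an unadjusted p under 0.05).

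Car14 encodes a further membrane enzyme with its active site outside the cell. Its signal in sham replicates 1 to 4 was 7.32, 7.11, 7.26 and 6.62, and in IUGR replicates 1 to 4 it was 7.62, 7.56, 7.79 and 8.94. The groups did not overlap, but the gap was 0.24 and IUGR replicate 4 stood far above its group. The difference was 0.90 ± 0.32 (SE, limma adjusted p = 0.142). Since sham replicates 2, 3 and 4 were below the olfactory receptor reference for Car14, the size of this difference is limited by the floor of signal. Without IUGR replicate 4 it was 0.58, a fall of over 1.5 times. Markers of several cell types moved with Car14. All 17 liver markers were higher in IUGR litters, and their mean was lowest in sham replicate 4 (9.15) and highest in IUGR replicate 4 (12.98), as for Car14. Sham replicate 1 went against this order, with a liver mean of 11.82 above the 11.65 of IUGR replicate 2 but a lower Car14 signal. The acinar mean was likewise lowest in sham replicate 4 (9.24) and highest in IUGR replicate 4 (11.93). Mesenchyme markers, all 10 lower in IUGR litters, were the mirror image at these 2 ends. Their mean was highest in sham replicate 4 (12.19) and lowest in IUGR replicate 4 (10.33). The 9 endothelial markers had the same 2 end litters (11.66 and 10.6). Between these ends their order was not reversed. Sham replicates 2 (11.02) and 3 (11.13) lay below IUGR replicates 1 to 3 (11.18 to 11.23), as for Car14. The part of any of these cells in the Car14 values was not tested.

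Car4, which encodes an isoform anchored to the membrane by a lipid, stayed close to the olfactory receptor reference. Its signal was 6.67 to 7.03 in sham litters and 6.62 to 6.88 in IUGR litters, so that the groups overlapped. The difference was -0.12 ± 0.11 (SE), with a 95% interval of -0.37 to 0.13.

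The mitochondrial isoforms differed in their patterns. Car5b read 9.56, 9.53, 9.73 and 8.94 in sham replicates 1 to 4. In IUGR replicates 1 to 4 it read 10.39, 10.48, 10.14 and 11.03. The groups did not overlap, with a gap of 0.41, and the ends were again sham replicate 4 and IUGR replicate 4. The means were 9.44 ± 0.35 and 10.51 ± 0.37 (SD, n = 4 each), a difference of 1.07 ± 0.23 (SE) or 2.10-fold (limma adjusted p = 0.080). Car5b was the closest of the 9 other members to the threshold, and it passed without sham replicate 1 (1.11, limma adjusted p = 0.031), a setting in which 2738 genes passed. The liver and acinar means given beside Car14 had the same 2 end litters, while sham replicate 1 went against the liver order for Car5b too. Sham replicate 4 also had the highest endocrine mean (11.98). The part of any of these cells in the Car5b values was not tested. Car5a, known as the mitochondrial isoform of liver, read 6.60 to 6.84 in sham and 6.62 to 6.86 in IUGR litters, near the olfactory receptor reference. Its difference was -0.03 ± 0.09 (SE), with a 95% interval of -0.24 to 0.19, and its sign turned under several settings.

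Car2 encodes the fast cytosolic enzyme of red blood cells, duct cells and many other tissues, and it was the member whose IUGR litters lay wholly below the sham litters. Its signal in sham replicates 1 to 4 was 11.59, 11.70, 11.45 and 11.36, and in IUGR replicates 1 to 4 it was 9.98, 11.19, 11.09 and 10.58. The gap was 0.17, and IUGR replicate 1 was the lowest. The difference was -0.82 ± 0.25 (SE), with a 95% interval of -1.40 to -0.23 (limma adjusted p = 0.130). Without IUGR replicate 1 it was -0.57.

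Erythroid markers moved with Car2. Of 10 measured erythroid markers, 9 were lower in IUGR litters, by a median of -0.66 over the 10, and all 10 lay above the olfactory receptor reference on every array. Their mean was 12.50, 12.52, 12.41 and 11.78 in sham replicates 1 to 4 and 11.05, 12.10, 12.21 and 11.52 in IUGR replicates 1 to 4. The 2 lowest IUGR litters were replicates 1 and 4 for the list and for Car2. Sham replicate 4 went against this order: its erythroid mean lay below those of IUGR replicates 2 and 3, while its Car2 signal lay above theirs. Car1, the other red-cell isoform and outside the 10 members, was also lowest in IUGR replicate 1 (11.20, against 11.74 to 12.63 in sham litters), and its difference was -0.41 ± 0.25 (SE). Macrophage markers, lower in all 10 members measured, had their lowest means in the same litters, IUGR replicates 1 (9.63) and 4 (9.86). The sham means were 10.49 to 11.27. IUGR replicates 2 (10.61) and 3 (10.73) lay within that range, while their Car2 signal lay below that of all sham litters. Duct markers, given beside Car12, went the other way. The part of any of these cells in the Car2 values was not tested.

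**Figure D2:**
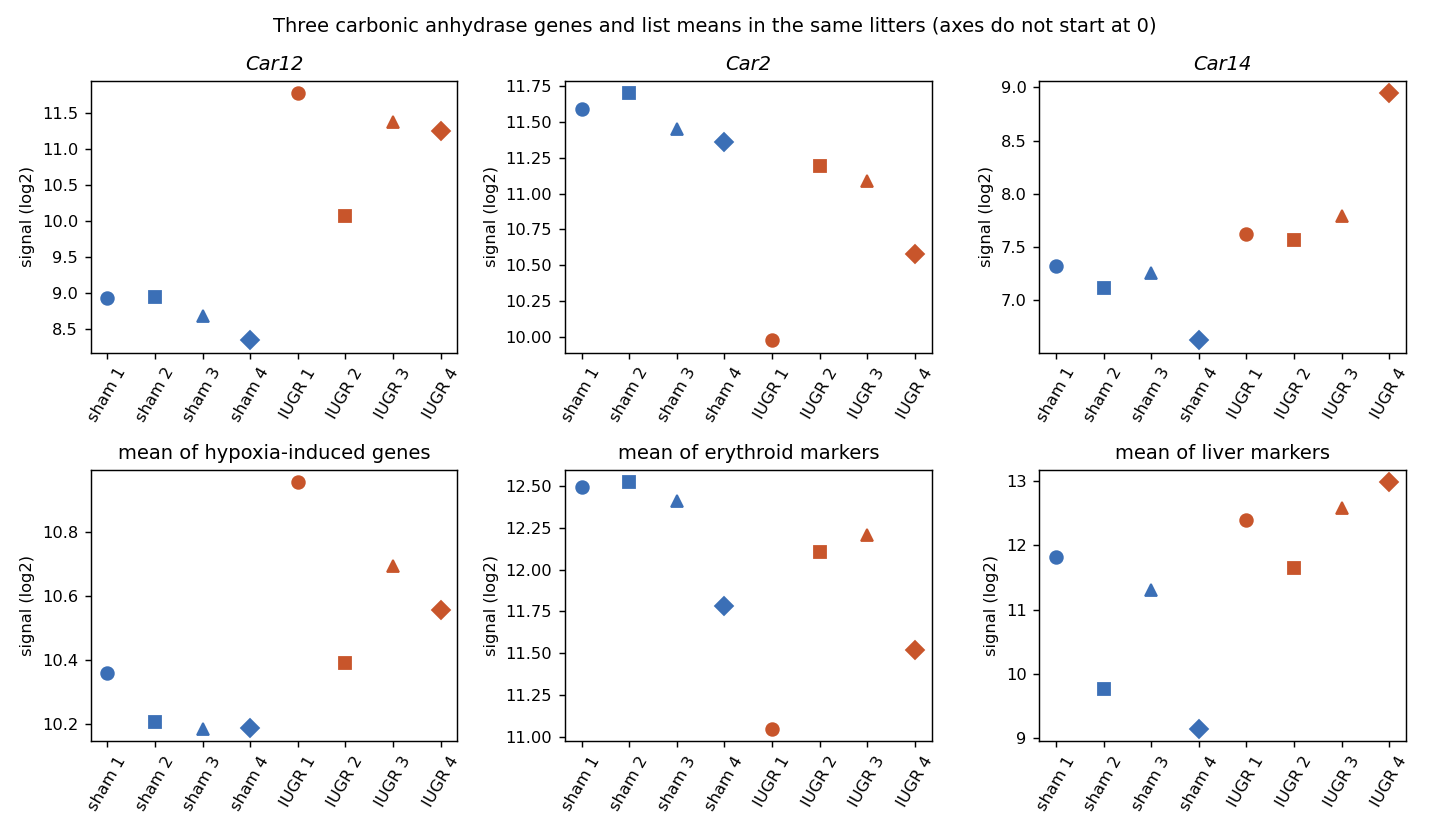
Upper row: signal (log2) of Car12, Car2 and Car14 in each litter, with sham in blue and IUGR in orange. Lower row: mean log2 signal, in the same litters, of 24 hypoxia-induced genes, 10 erythroid markers and 17 liver markers, where the lowest erythroid litter (IUGR 1) is also the lowest for Car2 and the highest liver litter (IUGR 4) is also the highest for Car14; axes do not start at 0.

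Car3 and Car13, the other cytosolic members, lie in the same gene cluster as Car2: on chromosome 2 of GRCr8 RefSeq lists Car2, Car3, Car1 and Car13 as consecutive protein-coding genes. Car3, known from skeletal muscle, liver and fat, read 6.79, 7.13, 7.84 and 7.26 in sham replicates 1 to 4 and 6.83 to 6.95 in IUGR litters. Only sham replicate 3 stood clearly above the rest, and the same litter had the highest mean of 13 skeletal muscle markers, 7.76, where the remaining sham litters had 7.33 to 7.45 and the IUGR litters 7.32 to 7.36. Only 3 of these 13 markers lay above the olfactory receptor reference on all arrays, so much of this mean is near background. Dim genes are lifted on sham replicate 3, as they are on sham replicates 2 and 4. The part of muscle RNA was not tested. The Car3 difference was -0.39 ± 0.20 (SE), and without sham replicate 3 it was -0.20. Sham replicates 2 and 4 were below the olfactory receptor reference for Car3, and on the 5 arrays that share the lower floor the direction turned (0.077). Car13 read 6.85 to 7.19 in sham and 6.93 to 7.25 in IUGR litters, and its difference was 0.00045 ± 0.11 (SE), with a 95% interval of -0.26 to 0.26. Within this cluster, then, Car2 was lower without overlap, Car1 and Car3 overlapped, and Car13 lay at 0 within its interval.

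Car8 encodes a carbonic anhydrase-related protein that lacks the enzyme activity. Its signal in sham replicates 1 to 4 was 9.56, 8.91, 8.76 and 8.24, and in IUGR replicates 1 to 4 it was 9.34, 9.43, 9.70 and 9.24. The groups overlapped through sham replicate 1. The difference was 0.56 ± 0.25 (SE), with a 95% interval of -0.03 to 1.14. Without sham replicate 1 it was 0.79 and passed (limma adjusted p = 0.031), without sham replicate 4 it was 0.35, and on the 5 arrays of wider signal range, where sham replicate 1 is the only sham litter, it was -0.13.

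Counted together, 1 member of 10 (Car12) passed the limma threshold in the higher direction and 0 in the lower, where 0.234% of all genes passed higher and 0.0138% lower. Since Car12 chose the family, nothing is read from that count. At an unadjusted p under 0.05 there were 4 members (Car2, Car5b, Car12 and Car14), against 26.1% of all genes. Adjusted p-values of the 9 other members ran from 0.080 to 0.998. IUGR litters lay wholly above sham litters in 3 members and wholly below in 1, where 10% of all genes lay above and 5.45% below. The median difference of the 10 was -0.01, with 5 positive and 5 negative, against a median of 0.04 and 55.1% positive over all genes. The differences of single isoforms thus lay on both sides of 0, from -0.82 in Car2 to 2.39 in Car12.

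**Figure D3:**
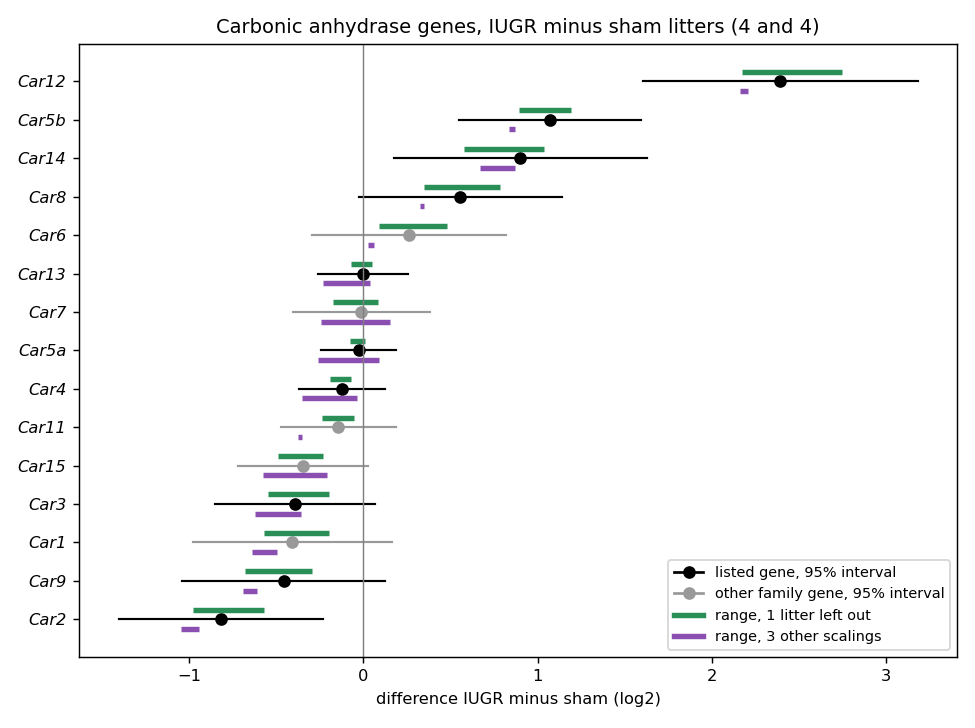
Difference IUGR minus sham (log2, 4 litters each) of the 10 listed genes in black and 5 other family genes in grey, with 95% intervals of the limma fit; green bars span the differences with 1 litter left out, purple bars those under 3 other scalings. Car12 runs from 2.16 to 2.74 over these alternatives and Car2 stays below 0, while the bars of Car13, Car7 and Car5a cross 0.

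The family has further genes on the array. Car1, Car6, Car7, Car11 and Car15 were measured, and all 5 overlapped between the groups, with limma adjusted p-values of 0.214 to 0.972 and 0 at an unadjusted p under 0.05. Car1 was bright on all arrays (11.20 to 12.63). Car6, which encodes the secreted isoform of saliva, read 8.31 to 9.48 in sham and 8.84 to 9.29 in IUGR litters. Car11, whose product lacks the enzyme activity like that of Car8, read 8.98 to 9.51 in sham and 8.84 to 9.29 in IUGR litters. Car15 was not above the olfactory receptor reference on any array and Car7 on 1 array.

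Bicarbonate and proton transporters work beside these enzymes, carrying the ions that the reaction makes across membranes. Of 33 listed, 29 were measured, and 12 of these lay above the olfactory receptor reference on all arrays. None passed in either direction (limma), with 7 higher and 2 lower at an unadjusted p under 0.05, where 15.4% of all genes were higher and 10.7% lower at that p. In all, 16 were higher and 13 lower, and the median difference was 0.03, against 0.04 over all genes. IUGR litters lay wholly above sham litters in 5 and wholly below in 0, against 10% and 5.45% of all genes. The list includes Nherf1, whose product is a scaffold protein and carries no ion. Nherf1 is among the 7 and among the 5. The list median was 0.48 when the dimmest 30% of genes were left out, a setting that also drops the dim members of the list. The median over all genes kept was then 0.14.

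The 3 transporters with the smallest p were all higher in IUGR litters. Slc9a8, a sodium-proton exchanger, read 8.67 to 8.95 in sham and 9.23 to 9.32 in IUGR litters, a difference of 0.48 ± 0.09 (SE, adjusted p = 0.072, limma). Slc26a9, a chloride and bicarbonate transporter, read 6.98 to 7.52 in sham and 7.67 to 8.54 in IUGR litters, a difference of 0.88 ± 0.19 (adjusted p = 0.080, limma). It was above the olfactory receptor reference on only 6 arrays, those below being sham arrays, so the size of its difference is limited by the floor of signal. Slc16a7, which carries lactate together with protons, read 7.99 to 8.71 in sham and 8.97 to 10.14 in IUGR litters, a difference of 1.02 ± 0.28 (adjusted p = 0.117, limma). None of these 3 overlapped between the groups. After quantile normalization, cyclic loess or median centring all 3 differences were smaller. They were then 0.24 to 0.27 for Slc9a8, 0.65 to 0.83 for Slc26a9 and 0.79 to 0.82 for Slc16a7. Slc4a1, the anion exchanger of red blood cells that exports the bicarbonate made by Car1 and Car2, is also 1 of the erythroid markers. It differed by -0.86 ± 0.35 (SE), in the direction of Car2.

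The other hypoxia-induced genes are set beside Car12 and Car9 because those are known targets of the same pathway. Of 24 genes measured, 22 were higher in IUGR litters by a list median of 0.43, and 21 lay above the olfactory receptor reference on all arrays. None passed over all genes (limma), with 12 higher and 1 lower at an unadjusted p under 0.05, where 15.4% of all genes were higher and 10.7% lower. In 7 the IUGR litters lay wholly above the sham litters and in 1 wholly below, against 10% and 5.45% of all genes. After median centring, which moved the median of all genes from 0.04 to -0.19, the list median was 0.20, and on the 5 arrays of wider signal range it was 0.25. The smallest p-values were those of Pdk1, a pyruvate dehydrogenase kinase (0.95 ± 0.18), Ero1a, an oxidase of the endoplasmic reticulum (0.53 ± 0.10), and Hk2, a hexokinase (0.76 ± 0.16, SE each). Their limma adjusted p-values were 0.072, 0.073 and 0.079. Hk2 lay above the olfactory receptor reference on only 6 of the 8 arrays, so the size of its difference is limited by the floor of signal.

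The list mean was 10.36, 10.21, 10.19 and 10.19 in sham replicates 1 to 4 and 10.95, 10.39, 10.69 and 10.56 in IUGR replicates 1 to 4. Within the IUGR litters Car12 and this mean were both highest in replicate 1 and lowest in replicate 2, over 4 litters. Within the sham litters the orders differed, with the list highest in replicate 1 and Car12 in replicate 2 (8.95, against 8.93 in replicate 1). Car9 was lower, not higher, in mean in the IUGR litters. The part of hypoxia in the Car12 values was not tested.

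The genes whose profile over the 8 litters was closest to that of Car12 were found by the root mean square difference between profiles, each centred on its own mean. The nearest was Nipal1, a magnesium transporter gene, at 0.28 (log2). Next came Gnmt, a glycine methyltransferase, at 0.36, then Trim50 at 0.37, Gstm3, a glutathione transferase, at 0.43, and Angptl8, a secreted regulator of lipid clearance, at 0.43. Since these 5 were picked for their likeness to Car12, their differences between groups are not results. Gnmt read 6.63 to 6.92 and Gstm3 6.58 to 7.47 in sham replicates 2 to 4, below the olfactory receptor reference of those arrays. The nearest of the other carbonic anhydrase members was Car5b at 0.85, then Car14 at 0.93, and the farthest was Car2 at 1.77.

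**Figure D4:**
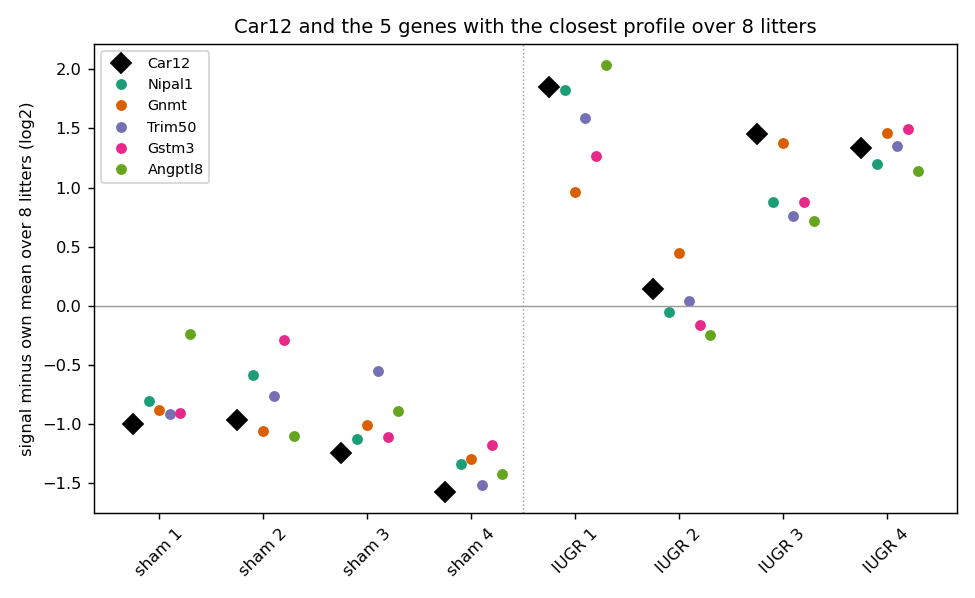
Signal of Car12 (black diamonds) and of the 5 genes with the closest profile, minus each gene's own mean over 8 litters (log2), by litter; the dotted line parts sham from IUGR. All 6 genes are below 0 in the sham litters, highest in IUGR 1, 3 and 4, and closest to 0 among IUGR litters in IUGR 2.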

How the data were processed

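Deposited values are log2 expression values made by the authors with RMA, per the submitters' processing notes (background correction, quantile normalization between arrays, probe summary). The software, its version and any probe filter are not stated in the labels. There were 29214 probe sets. The platform annotation gave 1 gene for 15310, several for 323 and none for 13581. Gene identifiers were updated through RefSeq of GRCr8 (15279 matched, 31 kept the older name), and the brightest probe set stood for each of 14506 genes. Each of the 10 members had exactly 1 probe set.

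The log2 values were fitted without rescaling in limma 3.58.1 (R 4.3.3; lmFit, eBayes, 2 groups, no covariate), with two-sided p-values adjusted by Benjamini and Hochberg over all 14506 genes, a threshold of 0.05 and 8.21 total degrees of freedom. The fit was tested on simulated data. SE and 95% intervals come from this fit. Arrays have no read depth, and their number limits the precision. The labels give separate litters as replicates.

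The members, lists and alternatives were chosen with earlier results of these data known. Named genes were the members, the other family genes, the 3 smallest p-values of each pathway list (or all past the threshold), and the 5 profiles closest to Car12. The replicate numbers are shared by the groups, and the labels do not say that they pair litters. Alternatives were quantile normalization, cyclic loess, median centring, no dim genes (30%), a trended robust prior, array weights, a replicate block, the mean of probe sets, all probe sets and each litter left out. The 5 arrays of wider signal range were added after the data were examined. Promoter sequences are from RefSeq. Figures used matplotlib 3.10.9.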

Additional observations from a re-analysis of the deposited data

Results flagged for a closer look

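In 2 of 30 groups of 4 litters (15 family genes in sham and in IUGR litters) 1 litter stood far from the other 3 against the range of its group, and chance alone gives about 1 in 20 such groups. Car14 was 8.94 in IUGR replicate 4, against 7.56 to 7.79 in the other IUGR litters. Car3 was 6.95 in IUGR replicate 4, against 6.83 in each of the others, a gap far smaller than the spread of the sham litters.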

How the results depend on the processing

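The Car12 difference kept its sign and moved by less than the spread between litters under all 18 alternatives (2.16 to 2.74). The number of members past the threshold was less stable than the differences. It was 1 (Car12) under 6 alternatives, among them a trended prior and no dim genes. It was 0 after quantile normalization, cyclic loess or median centring, with the replicate block and on the 5 arrays of wider signal range, where of all 14506 genes 0 passed (1 after median centring, limma), and 7 with array weights, which gave 6358 calls over all genes. With 1 litter left out it ran from 0 to 3; it was 3 (Car5b, Car8 and Car12) without sham replicate 1 and 0 without sham replicate 2 or 3 or IUGR replicate 1, 3 or 4, where 0 genes passed in all (2 without IUGR replicate 4). These zeros therefore hold for nearly all genes and say nothing particular about the family. At an unadjusted p under 0.05 there were 3305 genes after quantile normalization, 3290 after cyclic loess, 1370 on the 5 arrays and 2628 to 2909 in these fits with 1 litter left out.

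Car2 (-1.05 to -0.57), Car5b (0.72 to 1.19), Car9 (-0.85 to -0.29) and Car14 (0.57 to 1.04) kept their sign under all 18 alternatives. Array weights brought all 4 past the threshold, in a fit where 6358 of all 14506 genes passed. That fit gave sham replicate 3 a weight of 7.82, against 0.20 to 1.03 for the other sham arrays. Signs turned in 5 of the members and in 3 other family genes, and the cause was not tested. Among these, Car8 and Car6 lay above the olfactory receptor reference on all arrays. On the 5 arrays of wider signal range Car3 was 0.077, Car4 0.077, Car5a 0.12, Car7 0.21, Car15 0.090, Car8 -0.13 and Car6 -0.40. Quantile normalization gave 0.088 for Car5a and 0.15 for Car7, and cyclic loess 0.052 and 0.098. Car13 was -0.23 after median centring and -0.083 with array weights. With 1 litter left out the values crossed 0, from -0.077 to 0.0085 for Car5a, from -0.067 to 0.047 for Car13 and from -0.17 to 0.082 for Car7.

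Same-numbered litters had correlations of -0.43, 0.10, -0.12 and -0.13 across genes in their deviations from the group means. Between litters of different numbers the correlations ran from -0.17 to 0.38. With 4 litters a group these values cannot show whether litters were paired. With the replicate block the Car12 difference stayed 2.39 and 0 genes of 14506 passed (limma), with 2715 at an unadjusted p under 0.05. The median of the transporter list moved between -0.20 and 0.48 over the alternatives. The 5 members near the olfactory receptor reference are limited by signal over background.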
